A study of Homo sapiens with 2 samples.

Results

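The sites described here are isolated entries of a PAR-CLIP list for METTL14 with the lowest score. They are nuclear T-to-C sites with the lowest deposited score, 3, and no other listed site on either strand within 20000 nt. The rule kept 990 of the 5981 listed sites, 16.6% of the list, and they lay on 24 chromosomes. Both the score and the spacing were used to choose them, so neither is a finding. The question asked of them was whether they still followed the density of genes along the chromosomes, set against the 2254 sites with a score of 4 or more chosen by the same spacing rule.

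METTL14 is the RNA-binding partner of METTL3 in the nuclear complex that writes N6-methyladenosine into transcripts, mostly while they are being made. It acts on pre-mRNA in the nucleus, so its contacts can lie in introns as well as exons. N6-methyladenosine is known for marking mRNAs for export, translation or decay through reader proteins. In PAR-CLIP, 4-thiouridine taken up into RNA crosslinks to a bound protein under long-wave UV light and is then read as C where the genome has T.

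All samples were 1 group, with 2 libraries labelled as replicates. HepG2, a human hepatocellular carcinoma line, carried METTL14 cDNA in the PLJM1 lentiviral vector, fused to an HA tag at its N-terminal and to EGFP at its C-terminal; infected cells were selected with puromycin and sorted for high GFP. The METTL14 studied was therefore an overexpressed, tagged copy, the cells were a sorted pool, and the list gives no measure of the level of METTL14. Cells received 200 µM 4-thiouridine for 16 h and were irradiated 3 times at 365 nm with 0.15 J/cm2, after which HA beads recovered the RNA and RNase T1 trimmed it. Both libraries' labels name the same list, which has 1 score per site, so nothing below has an error between replicates. Intervals and p-values cover the counting of sites, or the spread over chromosomes where that is said. No control library was analysed here, and the depth of the libraries is unknown.

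The score is the authors' whole number, with no unit given in the sources used here. Of all listed sites 25.8% had the score 3. Among the 3244 lone nuclear sites the share was 30.5% (95% Wilson interval 29.0 to 32.1%), and among the 2706 sites with a neighbour within 20000 nt it was 20.4% (18.9 to 22.0%). Put the other way, 64.2% (61.8 to 66.6%) of the 1542 nuclear sites with score 3 stood alone, against 51.1% (49.7 to 52.6%) of those with a higher score. Just outside the score limit there were 571 lone sites with score 4, of 933 nuclear sites with that score. Score and spacing both chose the sites, so these shares are given as a description, without a test. The 990 sites together held 0.0361% of the summed score of the list. The rule fixed their scores, and a few very high scores weigh on that sum. The highest listed score was 1.86e+06, while the median of the higher-scored lone sites was 6.

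Gene density was taken per chromosome, as the number of protein-coding genes per Mb of annotated length in GENCODE 29. Over the 22 autosomes it ran from 2.81 genes per Mb on chromosome 13 to 25.1 on chromosome 19, with a median of 5.76. The sites are on the hg19 build and this annotation is on GRCh38, so sites were not placed in genes and no sequence was read at them. Which transcripts carried the sites, and whether the site base is T, was not analysed here.

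The lone score 3 sites were denser on autosomes rich in genes. Chromosome 19, the most gene-dense, held 44 of them in 58.6 Mb, or 0.751 per Mb, and chromosome 17, the next, held 46, or 0.554 per Mb. Chromosomes 13 and 18, the least gene-dense, held 27 and 17, or 0.236 and 0.212 per Mb. The lowest density was on chromosome 21, with 6 sites and 0.129 per Mb, although 5 autosomes with more sites per Mb (13, 18, 4, 8 and 5) had fewer genes per Mb than its 4.95. On average 1 such site was met every 1.33 Mb on chromosome 19 and every 7.78 Mb on chromosome 21. Chromosomes 2 and 9, picked after their values were seen, stood high for their gene density, with 99 and 55 sites, or 0.409 and 0.398 per Mb, at 5.15 and 5.62 genes per Mb. Outside the autosomes, chromosome X held 26 and chromosome Y held 4.

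**Figure D1:**
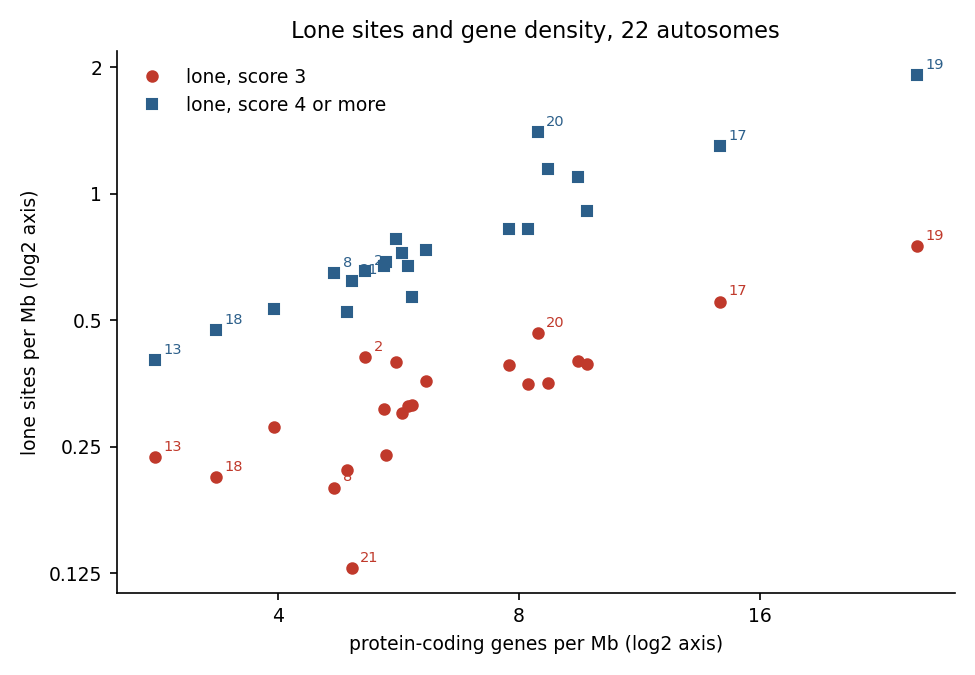
Lone sites per Mb against protein-coding genes per Mb, 1 point for each of 22 autosomes and score class, both axes on a log2 scale. Points of both classes climb from chromosome 13 (0.236 and 0.402 sites per Mb for score 3 and for score 4 or more) to chromosome 19 (0.751 and 1.91), with chromosome 21 low and chromosome 2 high among the score 3 points.

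Each doubling of gene density went with 1.48-fold more lone score 3 sites per Mb (95% interval 1.30 to 1.68, quasi-Poisson fit over 22 autosomes). An interval above 1 describes a density of sites that rises with gene density, and one below 2 describes a rise that is less than proportional. For lone sites with a score of 4 or more the factor was 1.63 (1.50 to 1.78). Over the autosomes, lone score 3 sites per Mb and genes per Mb had a Pearson's r of 0.89 and a Spearman's rho of 0.80 (n = 22 chromosomes), and the higher-scored lone sites had 0.92 and 0.92. These correlations are descriptions: both measures are divided by the same chromosome length, and the 22 points have unequal numbers of sites. The fitted factors also use that same length for both measures.

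In plain numbers per chromosome the lone score 3 sites followed chromosome length about as closely as gene number. Their r was 0.81 with genes (rho 0.85), 0.89 with exonic length (rho 0.88) and 0.83 with annotated length (rho 0.76). For lone sites of score 4 or more the order was genes 0.92, exonic length 0.94 and annotated length 0.76. Without chromosomes 1 and 19, the r with genes was 0.83 for score 3 and 0.92 for the rest. Per 100 protein-coding genes, lone score 3 sites ran from 2.60 on chromosome 21 to 8.41 on chromosome 13, a 3.24-fold range, with chromosome 19 at 2.99. The higher-scored lone sites ran over a 2.18-fold range, from 7.61 on chromosome 19 to 16.6 on chromosome 20. These ends rest on 6 and 27 score 3 sites, and on 112 and 90 higher-scored ones. Smaller counts by themselves widen a range and lower r, and the classes hold 990 and 2254 sites. Whether the ranges and r differ between the classes beyond that was not tested.

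Whether the share of score 3 among lone sites changed with gene density was then tested. This compares the rise with gene density between the classes, not how tightly each class follows it. In the 11 autosomes of higher gene density, 493 of 1651 lone sites had the score 3, or 29.9% (27.7 to 32.1%). In the 11 of lower gene density, 467 of 1476 had it, or 31.6% (29.3 to 34.1%). The odds ratio was 0.92 (0.79 to 1.07; two-sided Fisher's exact test p = 0.294, adjusted p = 0.393 over the 4 main tests). Over the whole range of gene density, the odds that a lone site had the score 3 changed 0.903-fold for each doubling of genes per Mb (0.791 to 1.03; quasi-binomial regression over 22 autosomes, p = 0.124, adjusted p = 0.248). Neither test passed at 0.05. Set against lone sites of score 14 or more, both odds ratios turned above 1, to 1.14 (exact p = 0.224) and 1.01 per doubling, and without chromosomes 2, 16 and 20 the first was 1.02. With a spacing of 10000 nt the regression passed, at 0.886-fold per doubling (quasi-binomial, p = 0.0497 without adjustment). For the reported setting the interval runs from odds 20.9% lower to odds 3.10% higher per doubling, and differences of that size were not resolved with this number of sites.

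The spacing rule by its construction removes more sites from chromosomes where listed sites are crowded. Among autosomes, 37.9% of listed sites were lone on chromosome 16 and 38.6% on chromosome 19, against 78.5% on chromosome 13. Chromosome Y, poor in genes, was lower still, at 32.8% of 58 sites. Score 3 sites that were not lone rose 2.38-fold per Mb for each doubling of gene density (1.88 to 3.02, 552 sites), and all 1542 nuclear score 3 sites 1.79-fold (1.57 to 2.03). The factor of 1.48 is thus the value after the spacing rule. For a score of 4 or more, the factor was 2.39 (1.99 to 2.87) for sites that were not lone and 2.00 (1.77 to 2.24) for all nuclear sites. Both score classes passed through that rule, so the comparison between them is made within it. The rule did not keep the same share of each, with 64.2% of nuclear score 3 sites and 51.1% of higher-scored ones.

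Across finer score classes of lone sites the factor had no steady course. It was 1.63 (1.41 to 1.89) at score 4, 1.76 (1.54 to 2.01) at 5 to 7, and 1.66 (1.37 to 2.00) at 8 to 13. At 14 to 99 it was 1.45 (1.17 to 1.80), and at 100 or more it was 1.51 (1.22 to 1.88, 158 sites). Score 3 thus lay among the lower values, beside the top 2 score classes, and the intervals of all 6 classes overlap.

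**Figure D2:**
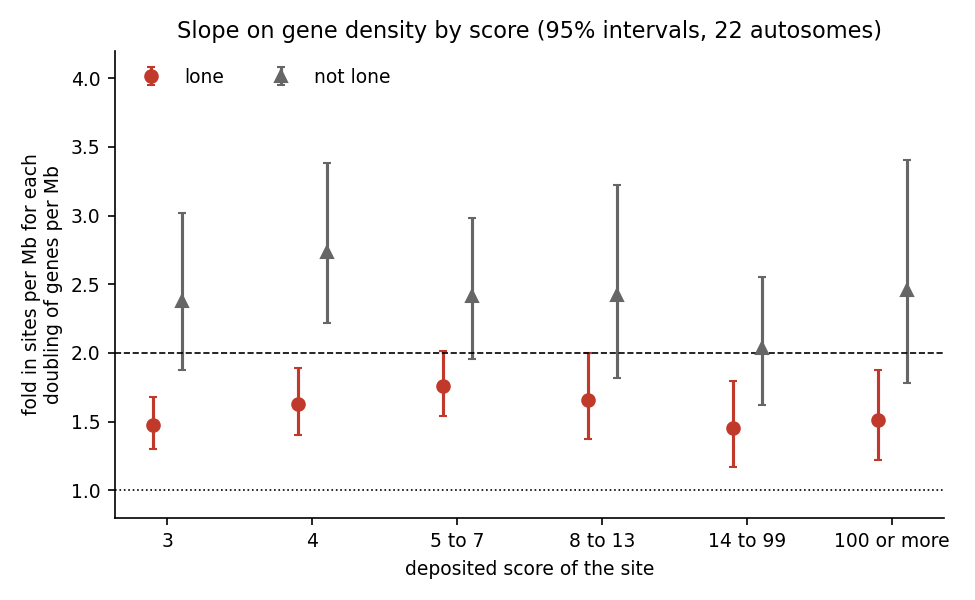
Fold in sites per Mb for each doubling of genes per Mb (vertical axis) by score class, for lone sites and for sites with a neighbour within 20000 nt, with 95% intervals over 22 autosomes. The dotted line marks no relation and the dashed line proportionality; lone score 3 sites are at 1.48 and score 3 sites with a neighbour at 2.38.

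The share of score 3 among lone sites was then tested on each chromosome against all others. None of the 24 nuclear chromosomes passed a two-sided Fisher's exact test after Benjamini-Hochberg adjustment (0% called), and 1 had an unadjusted p under 0.05 (4.17%). That one was chromosome 2, where 99 of 257 lone sites, 38.5% (32.8 to 44.6%), had the score 3 against 29.8% elsewhere (exact p = 0.00467, adjusted p = 0.112). With lone sites defined by 50000 nt in place of 20000 nt, chromosome 2 did pass, at 94 of 232 sites or 40.5% (exact test, adjusted p = 0.0437). The next highest shares among autosomes were 37.0% on chromosome 13 and 35.6% on chromosome 15. The lowest among autosomes were 17.1% on chromosome 21, with 6 of 35 sites, 23.6% on chromosome 8, with 29 of 123, and 23.7% on chromosome 22, with 18 of 76; chromosome Y was at 21.1%, with 4 of 19. Chromosomes 13 and 21 are both poor in genes and sit near opposite ends of this order.

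**Figure D3:**
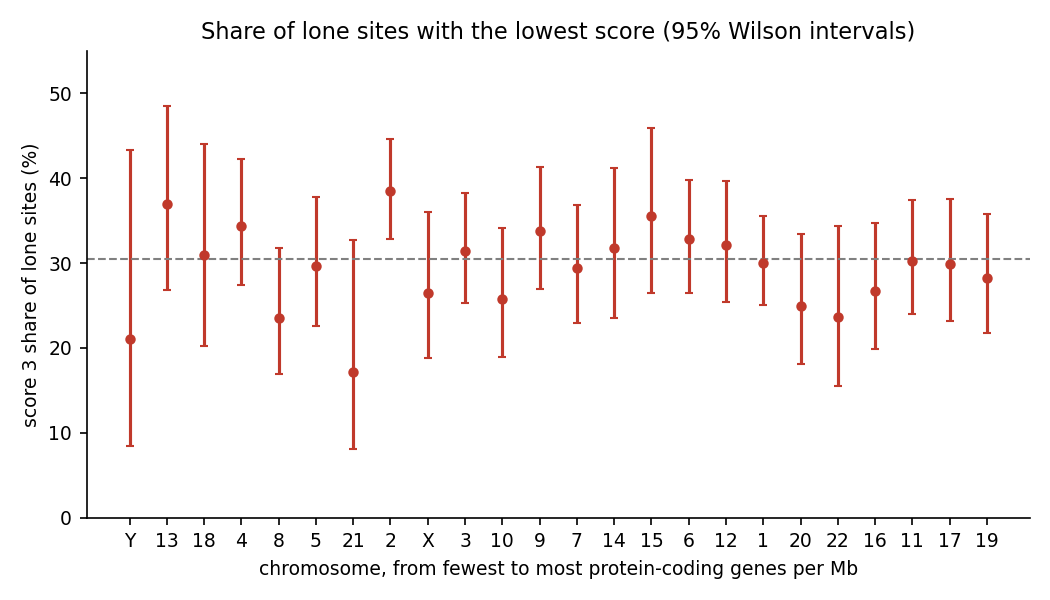
Share of lone sites with score 3 (vertical axis, percent) on each nuclear chromosome, ordered from fewest to most protein-coding genes per Mb, with 95% Wilson intervals; the dashed line is the pooled share of 30.5%. The interval of chromosome 2 (32.8 to 44.6%) is the only one that lies wholly above the line, none lies wholly below it, and the points show no steady climb or fall from left to right.

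The lone score 3 sites were divided evenly between strands. Of the 990, 486 were on the plus strand, 49.1% (46.0 to 52.2%, exact binomial p = 0.589). The higher-scored lone sites leaned to the plus strand, with 1207 of 2254, 53.5% (51.5 to 55.6%, exact binomial p = 0.000807). These binomial p-values are against 50% and without adjustment. Whether genes themselves are split evenly between strands was not checked. Between the classes the odds ratio was 0.84 (0.72 to 0.97; Fisher's exact test p = 0.0199), which did not pass after adjustment over the 4 main tests (adjusted p = 0.0797). The plus share of the score 3 sites was the lower one on 14 of 22 autosomes. Lone sites with score 4 were at 49.4% (45.3 to 53.5%), close to score 3, while the classes 5 to 7, 8 to 13 and 14 to 99 were at 54.8%, 55.1% and 55.8%, and that of 100 or more at 53.2% (45.4 to 60.8%). With scores 3 and 4 pooled against 5 or more, a split chosen after the list was seen, the odds ratio was 0.79 (0.69 to 0.91; Fisher's exact test p = 0.00107, without adjustment); with a spacing of 50000 nt and the classes as before it was 0.87 (exact p = 0.0873). Sites of score 4 or more that were not lone were at 46.9% (44.8 to 49.0%), on the other side of an even split. Their exact binomial p was 0.00415 against 50%, without adjustment. Before the spacing rule, all nuclear sites of score 4 or more were at 50.3% (48.8 to 51.8%, exact binomial p = 0.707). All nuclear score 3 sites were at 49.8% (47.3 to 52.3%). The lean of the higher-scored lone sites thus appears only within the split by spacing.

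The nearest listed site of a lone score 3 site lay at a median of 177420 nt, with quartiles of 71471 and 434700 nt. For the higher-scored lone sites the median was 162241 nt, with quartiles of 65448 and 408636 nt. In a window of 1 Mb to either side, both classes had a median of 4 other listed sites, and 8.18% of score 3 sites against 9.18% of the others had none. The nearest site itself had the score 3 in 30.0% (27.2 to 32.9%) of cases for score 3 sites and in 27.6% (25.8 to 29.5%) for the others.

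Genes are read from 1 strand, so sites on 1 long transcription unit share a strand even when they are far apart. Of the 153 lone score 3 sites whose nearest listed site was 20001 to 50000 nt away, 93 had it on the same strand, 60.8% (52.9 to 68.2%, exact binomial p = 0.00945 against 50%, without adjustment). The share was 53.6% (46.3 to 60.6%) of 183 sites at 50001 to 100000 nt, 54.2% (49.5 to 58.8%) of 441 at 100001 to 500000 nt and 47.9% (41.3 to 54.6%) of 213 beyond that. In the same order the exact binomial p-values were 0.375, 0.0864 and 0.584, without adjustment. Over all distances the share was 53.7% of 990 (50.6 to 56.8%, exact binomial p = 0.0203, without adjustment). Higher-scored lone sites had 61.5% (56.7 to 66.1%) of 413 in the nearest class and 53.5%, 53.7% and 53.8% in the following ones. Over all distances the odds ratio between the classes was 0.95 (0.81 to 1.10; Fisher's exact test p = 0.491, adjusted p = 0.491), and in no distance class did the exact test between them pass (adjusted p of 0.629 to 1 over the 4 classes). Where 2 lone sites are each other's nearest, the pair enters more than once. The intervals are then somewhat too narrow and the p-values somewhat too small. Sites were not placed in genes, so whether shared transcription units account for these shares was not tested.

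**Figure D4:**
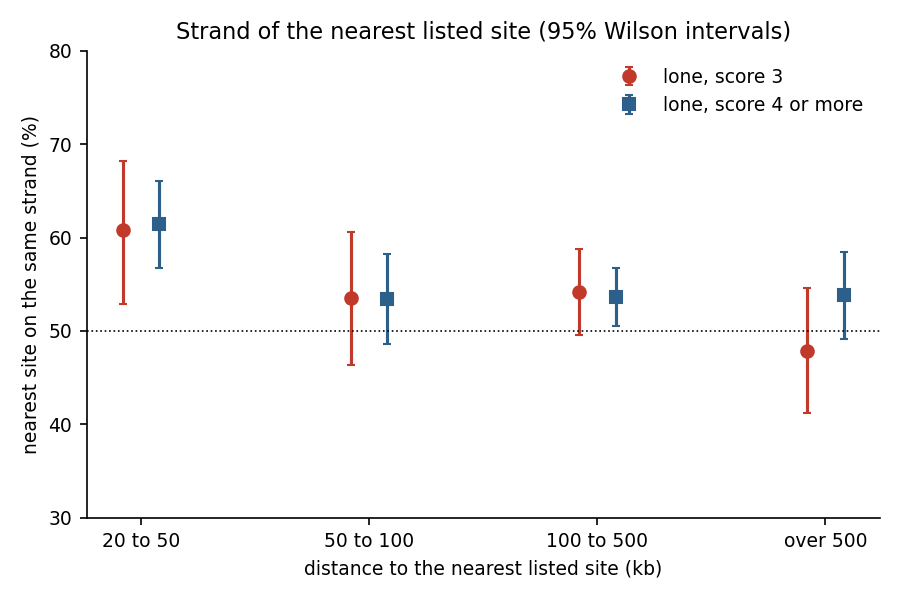
Share of lone sites whose nearest listed site is on the same strand (vertical axis, percent, 95% Wilson intervals) by the distance to it in kb, for score 3 and for score 4 or more. Both classes stand highest in the nearest distance class (60.8 and 61.5%), and the intervals of the classes overlap at every distance; the dotted line is 50%.

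The most isolated score 3 site lay on the minus strand of chromosome 7 at 15784396, with 4101164 nt to the nearest listed site. Next came sites at 33970041 on chromosome 4 (plus strand, 3986430 nt), 712241 on chromosome 9 (plus, 3954275 nt), 60628296 on chromosome 5 (plus, 3599818 nt) and 24180207 on chromosome 18 (plus, 2988478 nt). In 4 of these 5 the distant neighbour was on the same strand, and its score ran from 11 to 89. Just inside the spacing limit were sites at 107574910 on chromosome 9 (20092 nt), 1747270 on chromosome 17 (20235 nt) and 44243165 on chromosome 6 (20379 nt). Just outside it were score 3 sites at 37445523 on chromosome 22 (19819 nt), 47331116 on chromosome 11 (19779 nt) and 17640916 on chromosome 20 (19766 nt). Coordinates are those of the deposited list on hg19.

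The names of the sites hold a further ordering that the score does not show. Each name ends in a number from 1 to 5981, and in the order of these numbers sites with 1 low score stand in unbroken runs. The 1543 sites with score 3 formed exactly 2 runs, of 1012 sites (numbers 2610 to 3621) and of 531 (4242 to 4772). Scores 4, 5, 6 and 7 formed 3, 4, 5 and 6 runs, 1 fewer than the score in each case; score 8 formed 6 and score 9 formed 7. No label or header says what the number ranks. It divides sites of equal score into classes. The 2 runs of score 3 were compared after this order had been seen.

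**Figure D5:**
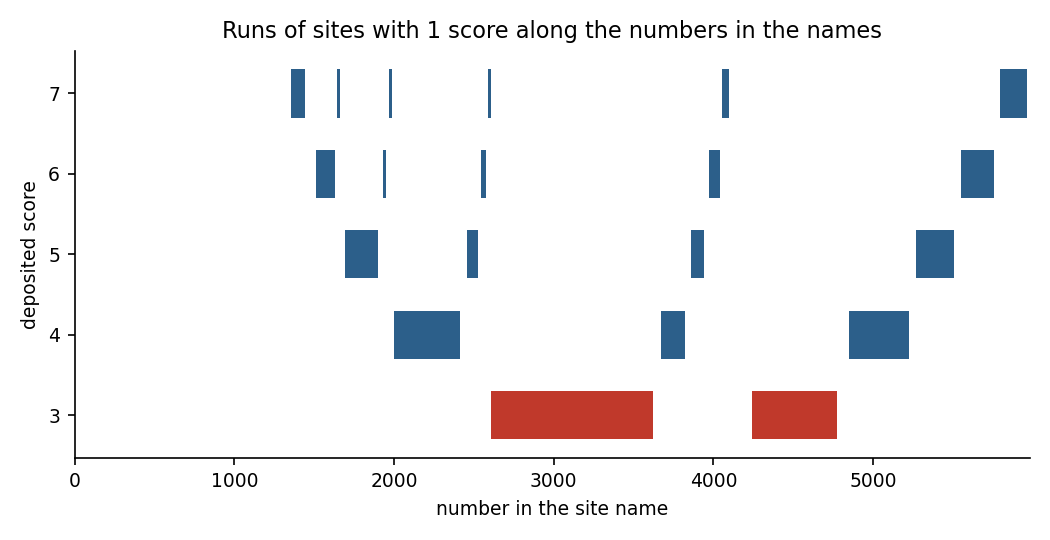
Runs of consecutively numbered sites with 1 score, for scores 3 to 7 (vertical axis), along the number in the site name (horizontal axis); each bar is 1 run. Score 3 has 2 runs, of 1012 and 531 sites, and each further score up to 7 has 1 run more.

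Of the lone score 3 sites, 696 came from the first run and 294 from the second. Among nuclear sites, 68.8% (65.9 to 71.6%) of the first run were lone against 55.4% (51.1 to 59.5%) of the second, a difference given without a test because spacing is part of the rule. Both runs followed gene density: lone sites per Mb rose 1.40-fold (1.22 to 1.61) per doubling of genes per Mb in the first run and 1.66-fold (1.32 to 2.09) in the second. The odds that a lone score 3 site was of the first run changed 0.849-fold per doubling (0.665 to 1.08, quasi-binomial regression over 22 autosomes, p = 0.176). In the 11 autosomes of higher gene density lay 343 of 674 autosomal sites of the first run, 50.9% (47.1 to 54.6%), and 150 of 286 of the second, 52.4% (46.7 to 58.2%; odds ratio 0.94, 0.71 to 1.24, Fisher's exact test p = 0.672).

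Neither test of strand between the runs passed. The plus share was 48.9% (45.2 to 52.6%) in the first and 49.7% (44.0 to 55.3%) in the second (Fisher's exact test p = 0.835). The nearest listed site was on the same strand for 54.9% (51.2 to 58.5%) and 51.0% (45.3 to 56.7%) of sites (exact p = 0.295). Adjusted over these 3 Fisher's exact tests, each p was 0.835.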

How the data were processed

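The authors deposited 1 list of T-to-C sites for 2 PAR-CLIP libraries, with the site's score as its only value; the score has no stated unit. The submitters' processing notes name hg19 as the build and Bowtie 1.1.2, cutadapt 1.13 and FastQC 0.11.5 as tools. The names carry rbsSeeker, per the file itself; how it was set, and whether libraries were pooled, the sources used here do not say. Depth per library is unknown.

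The middle base of each 201 nt interval was the site, with chromosome M left out. Gene numbers, merged exonic lengths and annotated lengths (end of the last protein-coding exon) per chromosome came from GENCODE 29. Autosomes were split at the median gene density into 2 groups of 11. Tests were two-sided Fisher's exact and binomial tests, Woolf intervals for odds ratios, and quasi-binomial and quasi-Poisson regressions (scipy 1.17.1, statsmodels 0.14.6, Python 3.11.15). The exact tests and the Wilson and Woolf intervals treat lone sites as independent. The regressions take their error from the spread over autosomes. The scripts were tested on simulated data. Named sites were the 5 farthest from any other site and the 3 nearest to the spacing limit on either side; for the share of score 3, the named autosomes were the 3 highest and 3 lowest, and other chromosomes were named after their values were seen. Tests on genes, motifs and bases, which need hg19 references, were left out. The members and tests were chosen with earlier results of these data known.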

Additional observations from a re-analysis of the deposited data

How the results depend on the processing

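In all 98 values were recomputed under other settings, and in 90 of them neither direction nor call changed. For correlations and folds, this means that the value lay inside the 95% interval of the main setting, which is not printed here for correlations. Many of the 98 only left out 1 autosome, 22 for the Fisher's exact test on gene density and 22 for the regression, so they differ little from the main setting. Set against lone sites of score 14 or more, the odds ratio between the 2 groups of gene density turned from 0.92 to 1.14 (exact p = 0.224), the odds ratio per doubling from 0.903 to 1.01 (p = 0.934) and that of the nearest site's strand from 0.95 to 1.01 (exact p = 0.958). Without chromosomes 2, 16 and 20 the odds ratio between these groups was 1.02 (exact p = 0.831), and between the runs of names it went from 0.94 to 1.01 (exact p = 1). With a spacing of 10000 nt, the odds ratio per doubling was 0.886 and passed the quasi-binomial regression over 22 autosomes (p = 0.0497, without adjustment). With a spacing of 50000 nt it was 0.874 in the same quasi-binomial regression (p = 0.0518). At that spacing the number of chromosomes past the test went from 0 to 1, and the odds ratio of the plus strand went from 0.84 to 0.867 and no longer passed at an unadjusted 0.05 (exact p = 0.0873). The causes of these changes were not tested. Leaving out each of the 22 autosomes in turn gave 0.886 to 0.973 between the groups and 0.878 to 0.930 per doubling, none past 0.05. The fold in score 3 sites per doubling of gene density stayed between 1.31 and 1.54. The regression of sites per Mb, the comparison of the runs of names, the alternative settings for the plus strand and the single autosomes left out were added after the list was seen. No paired analysis was possible because all samples form 1 group. Replicates could not be left out in turn, as the scores are not given per library.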
